A study of Mus musculus with 12 samples.

Results

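The transgenic and wild-type hearts compared after ischaemia–reperfusion (IR) are 6 of the 12 libraries of the series, 3 labelled ZEB2 Tg and 3 from wild-type (WT) littermates, whose read counts share a table. All 6 mice carry the strain label C57Bl/6J and had IR. In this injury the left anterior descending artery was tied off for 1 h and then released, and the heart was taken after 14 days. The transgenic mice carry a conditional Zeb2 cassette behind a loxP-flanked stop (R26-lslZeb2) in both copies of the Rosa26 locus, together with a Cre recombinase driven by the Myh6 promoter, which is active in cardiomyocytes and not in the other cells of the heart. The sources used here do not say which of these alleles the littermates carried, so effects of Cre itself and of the Zeb2 cassette cannot be told apart. The methods give the mice as 8 to 9 weeks old and, for the transgenic experiments, male. The tissue is left ventricle in the sample labels, the remote zone in the methods, and infarct with border zone in the design text. Every gene that passed a filter on low counts was compared, 13018 of the 38293 in the table, and both directions are described. Levels are in CPM, counts scaled to the TMM-adjusted size of each library, and are given in the order of replicates 1 to 3, with the hearts labelled ZEB2 Tg before the littermates. A gene was called higher or lower where edgeR's quasi-likelihood test gave a Benjamini-Hochberg adjusted p below 0.05. The labels name each library a separate replicate but do not say how the hearts were raised, so p-values measure the spread between these samples.

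ZEB2 is a zinc finger transcription factor that binds pairs of CACCTG motifs, represses epithelial genes such as E-cadherin and is best known for driving epithelial–mesenchymal transition in development. After an infarct, cardiomyocytes lose contractile and calcium-handling capacity and re-express fetal genes, while fibroblasts become activated and lay down a collagen scar. The comparison asks how transcripts of injured heart tissue, with its muscle, stromal, vascular and immune cells, differ between the 2 labels. By its design the transgene is meant to raise the factor in cardiomyocytes. In bulk tissue of this kind, fewer cells of a type and less RNA per cell cannot be told apart.

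Zeb2 (ENSMUSG00000026872, chromosome 2, 44983632 to 45117395, minus strand, mm10) had 55.5, 56.9 and 58.7 CPM against 54.7, 57.8 and 67.03 CPM, and the groups overlapped. Its log2 fold change was -0.07 (SE 0.12, adjusted p = 0.7495). No excess of Zeb2 was thus seen in the counts of the hearts labelled ZEB2 Tg. The sources used here do not say whether reads of the cassette were counted for this gene, so the value may not measure the transgene. The study also assayed Zeb2 and eGFP by qPCR in hearts of such mice, which is not analysed here, and every direction given here rests on the labels. The closely related factor Zeb1 had 32.2, 36.4 and 31.5 CPM against 43.6, 47.1 and 44.3 CPM (log2 fold change -0.43, SE 0.11, adjusted p = 0.0684), so that its groups did not overlap but did not pass the test. The noncoding transcript of the targeted locus, Gt(ROSA)26Sor, was too weak to be tested, with 2, 3 and 3 counts in the hearts labelled ZEB2 Tg and 11, 5 and 4 counts in the littermates. Myh6, whose promoter drives Cre, had 8808, 4920.4 and 8514 CPM against 6626, 4702 and 4516 CPM and overlapped.

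The libraries held 24191364 to 30135232 counts, of which 60.6 to 73.5% came from the mitochondrial genome and 7956735 to 11618213 from other genes, so that 1 CPM stands for 23.9 to 35.6 counts. The Y-linked gene Ddx3y had 54.3 to 91.5 CPM and Xist at most 1 count in each library. The summed level of 22 cardiomyocyte markers was 76356 to 80588 CPM in the hearts labelled ZEB2 Tg and 67865 to 73460.2 CPM in the littermates. The defining skeletal muscle, T cell and adipocyte markers Myh1, Cd3e and Adipoq had at most 5 counts in any library. The fold change moved with the GC content of the transcript. Over 5 classes of rising GC content the median log2 fold change went from -0.21 to 0.42, with 17 genes called higher and 54 lower in the first class and 97 and 15 in the last. After a correction that centres each library along GC content, the medians of the 5 classes lay between 0.00 and 0.03, and 404 of the 474 called genes were still called. The part of GC content in the result of a gene was not tested, and for named genes the corrected value is given where the correction changes the call.

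**Figure D1:**
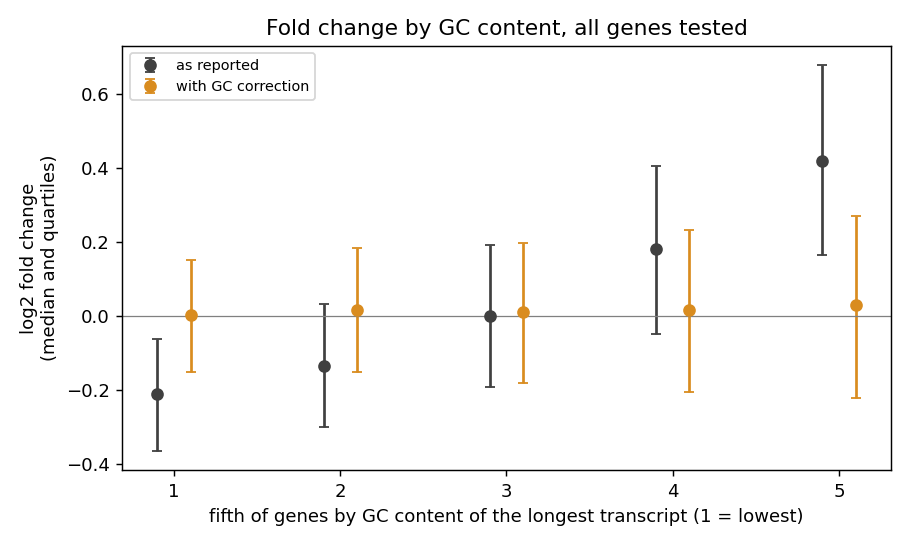
The horizontal axis divides the genes tested into 5 classes by the GC content of their transcript, and the vertical axis gives the log2 fold change, hearts labelled ZEB2 Tg over littermates, with points for medians and bars for quartiles. As reported (dark) the median climbs from -0.21 to 0.42, and with the GC correction (orange) the medians lie between 0.00 and 0.03.

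Between the groups, 278 genes (2.14% of those tested) were called higher in the hearts labelled ZEB2 Tg and 196 (1.51%) lower, 3.64% in all. The levels of all called genes were free of overlap between the groups, whereas over all genes tested the 3 transgenic values lay wholly above the littermates in 13.4% and wholly below in 12.8%. The lower genes were fewer, and their median absolute log2 fold change was 1.21, against 1.07 for the higher genes. Changes beyond 2 on the log2 scale numbered 46 among the lower and 42 among the higher genes. Most called genes code for proteins, 270 of the higher and 187 of the lower. A mean level under 1 CPM was found for 20 of the higher and 28 of the lower genes, and a mean above 100 CPM for 19 and 8. The balance between the directions depends on the scaling. Scaling on cardiomyocyte markers, which moved the median log2 fold change of all genes to -0.15 from 0.01, gave 179 genes higher and 602 lower.

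The number of called genes also depended on single libraries. Leaving out littermate replicate 3 gave 50 genes higher and 48 lower, and leaving out littermate replicate 2 gave 112 and 133. Without replicate 1 labelled ZEB2 Tg the counts were 81 and 68, and without replicate 3 labelled ZEB2 Tg they were 71 and 46. Leaving out littermate replicate 1 gave 189 and 136, whereas leaving out replicate 2 labelled ZEB2 Tg gave 1594 and 825. The 15 genes that led the ranking by p-value in each direction passed in all 6 of these fits and with the GC correction. Of the 98 called genes chosen for naming by rank or list, 36 passed in all 6 fits, and for a gene that passed in fewer the number of fits is given beside its value.

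**Figure D2:**
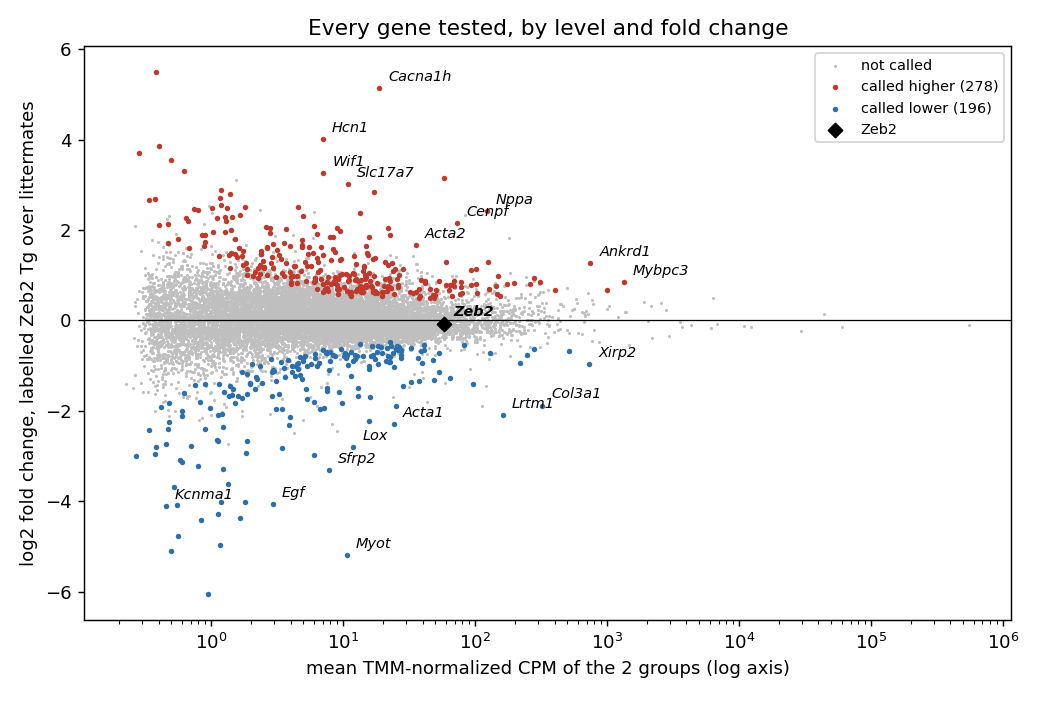
Each point is a gene tested, placed by its mean level in CPM (horizontal, log axis) and its log2 fold change, hearts labelled ZEB2 Tg over littermates (vertical). The 278 genes called higher are red, the 196 called lower blue, and Zeb2 is the black diamond close to 0.

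Among the 15 leading higher genes, several encode channels and membrane proteins of excitable cells. Cacna1h encodes the pore of a low-voltage-activated (T-type) calcium channel. It (ENSMUSG00000024112, chromosome 17, 25374285 to 25433783, minus strand) had 51.6, 18.6 and 39.6 CPM against 0.917, 0.931 and 1.23 CPM, and the lowest transgenic value was far above the highest littermate value. The log2 fold change was 5.14 (SE 0.39, adjusted p = 0.000505), or 35.3-fold. Slc17a7 (ENSMUSG00000070570, chromosome 7, 45163949 to 45176142, plus strand), a vesicular glutamate transporter of neurons, had 24.9, 14.3 and 19.1 CPM against 2.38, 2.14 and 2.599 CPM (log2 fold change 3.02). In both genes each heart labelled ZEB2 Tg was above each littermate by a wide margin, although the transgenic values themselves spread. Kcne1, the accessory subunit of the slow delayed rectifier potassium channel, had 9.85, 5.38 and 7.83 CPM against 1.28, 1.25 and 1.47 CPM (log2 fold change 2.52). The neural adhesion molecule Ncam1 had 7.75, 8.86 and 8.06 CPM against 1.91, 1.01 and 2.03 CPM (log2 fold change 2.30). Pirt, a membrane protein of sensory neurons, had 24.4, 29.96 and 19.1 CPM against 6.16, 8.13 and 6.23 CPM (log2 fold change 1.84), and here too every transgenic heart exceeded every littermate.

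The other leading higher genes were of mixed function and spanned the same range, all 15 lying between 1.39 and 5.14 on the log2 scale with a median of 2.32. Wif1 (ENSMUSG00000020218, chromosome 10, 121033960 to 121100650, plus strand) is a secreted protein that binds Wnt ligands and keeps them from their receptors. It had 14.9, 14.7 and 8.87 CPM against 1.54, 1.21 and 1.27 CPM (log2 fold change 3.25, SE 0.25, adjusted p = 0.000505). Ndnf, a secreted neurotrophic factor, had 23.8, 44.6 and 21.6 CPM against 4.03, 3.24 and 5.197 CPM (log2 fold change 2.84). Both genes for secreted proteins were thus several-fold higher in each transgenic heart than in any littermate. Bin1, which bends membranes and shapes the T-tubules of cardiomyocytes, had 7.96, 11.6 and 9.55 CPM against 2.64, 1.94 and 2.23 CPM (log2 fold change 2.09). Myl9, a myosin regulatory light chain of smooth muscle and nonmuscle cells, had 21.2, 17.02 and 29.5 CPM against 5.32, 3.08 and 4.698 CPM (log2 fold change 2.37). Cenpf, a kinetochore and microtubule-binding protein, had 158, 114 and 87.3 CPM against 31.6, 26.3 and 22.5 CPM (log2 fold change 2.16). Of 35 cell cycle genes tested, 0 were called higher, or 1 with the GC correction, and 1 (Polq) was called lower. Gcnt1, which branches O-linked glycans, had 14.4, 13.2 and 10.02 CPM against 3.59, 3.12 and 3.73 CPM (log2 fold change 1.84). Jpt1 had 23.7, 24.8 and 26.9 CPM against 9.903, 8.74 and 10.1 CPM (log2 fold change 1.39), and Fam122b had 11.2, 10.8 and 8.28 CPM against 2.46, 2.55 and 2.93 CPM (log2 fold change 1.92).

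The 15 leading lower genes spanned log2 fold changes from -6.05 to -1.61 with a median of -2.97. Myot, or myotilin, crosslinks actin at the Z-disc of striated muscle. It (ENSMUSG00000024471, chromosome 18, 44334074 to 44355724, plus strand) had 0.964, 0.267 and 0.505 CPM against 18.7, 25.7 and 18.1 CPM. The log2 fold change was -5.19 (SE 0.33, adjusted p = 0.000505), or 36.5-fold lower, with all littermates far above the transgenic hearts. Egf (ENSMUSG00000028017, chromosome 3, 129677565 to 129755316, minus strand), a ligand of the EGF receptor, had 0.419, 0.267 and 0.309 CPM against 4.58, 7.28 and 4.698 CPM (log2 fold change -4.05, SE 0.30, adjusted p = 0.000505). Lrtm1, a leucine-rich repeat membrane protein, had 67.3, 45.5 and 72.6 CPM against 229.9, 306 and 254 CPM (log2 fold change -2.09). Polq, a DNA polymerase of an error-prone break repair pathway, had 1.05, 1.87 and 1.15 CPM against 10.3, 9.19 and 12.3 CPM (log2 fold change -2.97). In these genes the littermates lay close together, and none of the hearts labelled ZEB2 Tg came near them.

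Secreted and matrix-modifying proteins formed 1 group among the other leading lower genes. Sfrp2 (ENSMUSG00000027996, chromosome 3, 83766321 to 83774316, plus strand), a secreted Frizzled-related protein, had 1.51, 1.34 and 1.46 CPM against 13.4, 8.82 and 20.7 CPM (log2 fold change -3.32). Lox (ENSMUSG00000024529, chromosome 18, 52516067 to 52529867, minus strand), which crosslinks collagen and elastin, had 2.47, 3.59 and 2.95 CPM against 15.04, 15.2 and 32.7 CPM (log2 fold change -2.80). Ccn4, a Wnt-induced matricellular protein, had 0.419, 0.611 and 0.477 CPM against 3.08, 2.55 and 4.03 CPM (log2 fold change -2.67). Littermate replicate 3 was the highest library in each of the 3, but the lowest littermate also lay above every transgenic heart. Further lower genes belong to membrane traffic and adhesion. Mal, a proteolipid of lipid rafts, had 3.65, 3.02 and 2.39 CPM against 10.5, 11.9 and 11.96 CPM (log2 fold change -1.93). Epn3, an endocytic adaptor, had 0.126, 0.0763 and 0.225 CPM against 4.58, 2.75 and 2.23 CPM (log2 fold change -4.37). Gramd1b, which moves cholesterol from the plasma membrane, had 6.75, 7.48 and 4.63 CPM against 17.1, 20.8 and 21.4 CPM (log2 fold change -1.66). Cntn5, a neural adhesion molecule, had 0.126, 0.191 and 0.1404 CPM against 1.504, 1.09 and 1.73 CPM (log2 fold change -3.22). The remaining ones included enzymes of signalling and sulfation. Mapk10, the stress kinase JNK3, had 1.01, 1.18 and 1.66 CPM against 6.93, 7.69 and 4.798 CPM (log2 fold change -2.31). Hs3st5, a heparan sulfate sulfotransferase, had 1.76, 1.56 and 1.52 CPM against 4.47, 5.54 and 4.798 CPM (log2 fold change -1.61). Tmem150c had 0.168, 0.0382 and 0.112 CPM against 2.09, 2.43 and 1.87 CPM (log2 fold change -4.28). D7Ertd443e had 2, 0 and 0 counts against 43, 43 and 67 counts, and no fold is given for it.

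**Figure D3:**
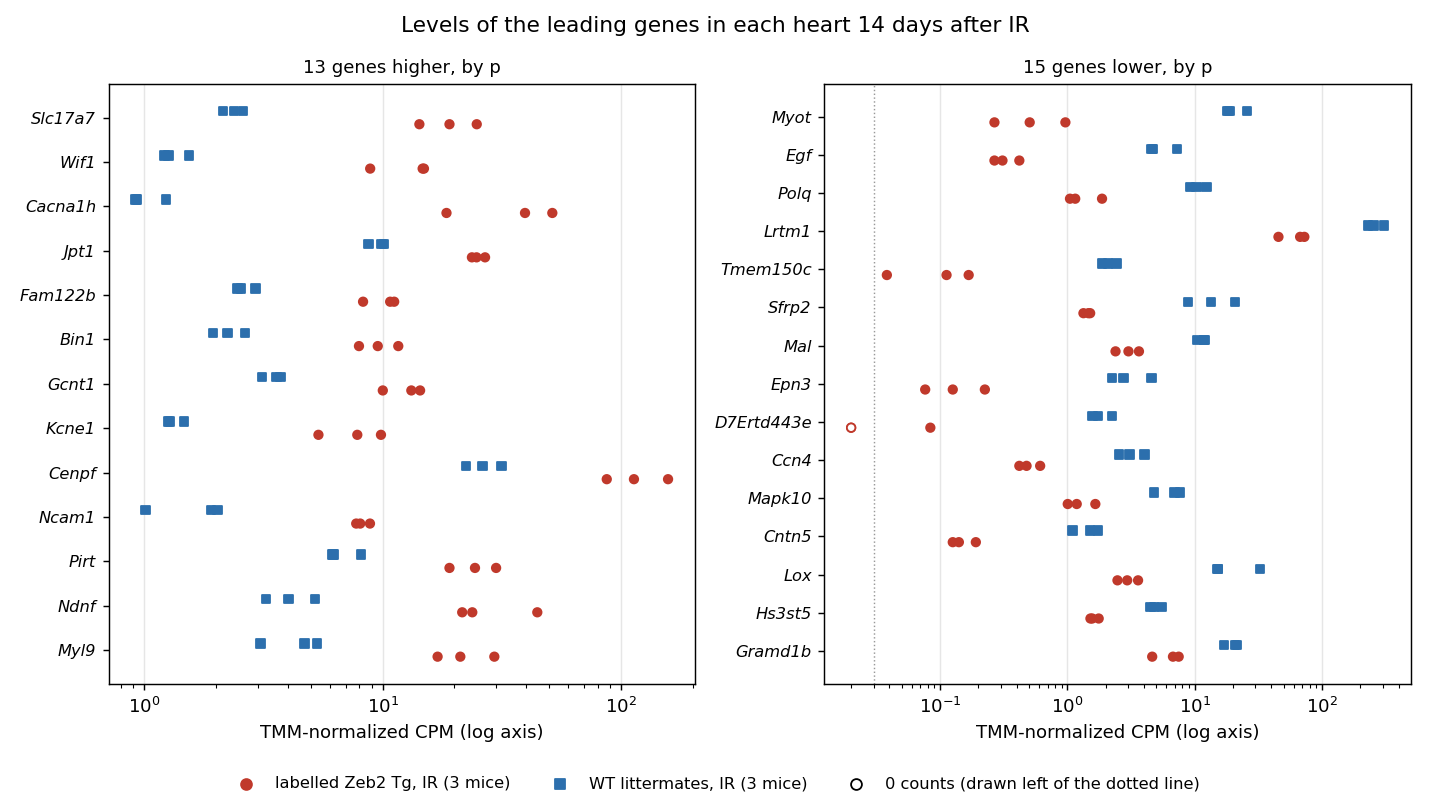
Levels in CPM (horizontal, log axis) of 13 of the 15 leading higher genes and of the 15 leading lower genes, 1 row a gene, with red circles for the 3 hearts labelled ZEB2 Tg and blue squares for the 3 littermates. In no row do the groups overlap, and D7Ertd443e has 0 counts in 2 libraries, whose open circles coincide.

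RefSeq promoters (GRCm38.p6, 250 bases before to 50 after a gene's start, the first listed for each gene) were searched for the letters CACCTG, the core of the ZEB2 motif, and for their reverse complement, on both strands. The core was present in 20.03% of all 27025 promoters and in 16.6% of the 9893 matched to genes tested. It was present in 53 of 215 promoters of genes called higher (24.7%) and in 28 of 149 promoters of genes called lower (18.8%). The median GC content of the transcript was 53.4% in the higher and 46.0% in the lower genes, beside 49.3% in all genes tested. The part of GC content in these shares was not tested. Of the leading genes, 7 of 15 higher and 10 of 15 lower had a promoter in the table, and the core lay in 3 of the 7 (Slc17a7, Wif1 and Myl9) and in 2 of the 10 (Cntn5 and Hs3st5). The promoters of 4 are shown because they are leading genes of either direction with these letters near the start, 5′ to 3′ on the strand of the gene and with the core in capitals. The core begins at -177 from the start site in Slc17a7, at -123 in Wif1, at 40 in Myl9 and at 3 in Cntn5. A match of 6 letters describes the sequence and not binding.
Slc17a7, chr7:45163671-45163970, plus strand: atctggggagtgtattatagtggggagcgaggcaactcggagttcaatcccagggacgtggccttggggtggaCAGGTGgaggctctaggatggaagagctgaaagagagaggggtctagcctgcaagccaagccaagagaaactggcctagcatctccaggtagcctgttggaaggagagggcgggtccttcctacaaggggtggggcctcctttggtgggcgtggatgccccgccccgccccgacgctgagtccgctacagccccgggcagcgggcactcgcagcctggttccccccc
Wif1, chr10:121033754-121034053, plus strand: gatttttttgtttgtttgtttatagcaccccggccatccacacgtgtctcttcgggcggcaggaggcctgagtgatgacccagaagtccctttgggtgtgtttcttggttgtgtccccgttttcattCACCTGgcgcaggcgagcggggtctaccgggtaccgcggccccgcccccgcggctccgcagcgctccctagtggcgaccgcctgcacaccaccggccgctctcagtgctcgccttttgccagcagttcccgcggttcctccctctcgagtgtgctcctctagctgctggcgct
Myl9, chr2:156775214-156775513, plus strand: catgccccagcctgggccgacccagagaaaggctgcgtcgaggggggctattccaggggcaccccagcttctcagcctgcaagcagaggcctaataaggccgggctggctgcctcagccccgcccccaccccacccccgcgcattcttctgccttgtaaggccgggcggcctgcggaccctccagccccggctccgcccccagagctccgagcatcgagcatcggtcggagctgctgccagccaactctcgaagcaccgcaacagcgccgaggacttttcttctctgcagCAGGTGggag
Cntn5, chr9:10904726-10905025, minus strand: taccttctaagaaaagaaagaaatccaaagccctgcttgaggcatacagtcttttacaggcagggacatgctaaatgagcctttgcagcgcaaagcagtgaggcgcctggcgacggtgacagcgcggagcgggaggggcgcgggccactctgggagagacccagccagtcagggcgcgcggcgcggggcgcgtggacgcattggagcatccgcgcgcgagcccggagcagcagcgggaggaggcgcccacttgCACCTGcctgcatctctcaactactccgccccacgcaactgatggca

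The genes of calcium entry and release that were called were not the main ventricular ones. Members of the lists used here and below were chosen with earlier results of these data known. The shares called therefore describe a list and do not test it against all genes. The 13 voltage-gated calcium channel subunits tested had a median log2 fold change of 0.15 beside 0.01 over all genes tested. Of these subunits, 2 were called higher (15.4%, beside 2.14% of all genes tested) and 0 lower. Besides Cacna1h this was Cacna1a, a P/Q-type channel pore, with 4.15, 3.86 and 4.21 CPM against 2.27, 1.82 and 1.37 CPM (log2 fold change 1.16, SE 0.22, adjusted p = 0.0244, 2 of 6 fits). With the GC correction its log2 fold change was 0.76 and the call was lost at an adjusted p of 0.0752. Cacna1c, the pore of the main L-type channel of ventricle, had 137, 117 and 163 CPM against 157, 129.7 and 142 CPM and overlapped. Of 37 genes of calcium stores, pumps and exchangers, 2 were called higher (5.41%, beside 2.14% of all genes tested) and 0 lower (median -0.03). Ryr3, a release channel that is scarce in ventricle, had 3.31, 6.37 and 3.85 CPM against 1.17, 0.8903 and 1.17 CPM (log2 fold change 2.06). Orai1, the pore of store-operated entry, had 2.81, 1.79 and 2.86 CPM against 1.21, 0.8903 and 0.666 CPM (log2 fold change 1.44, 2 of 6 fits). In contrast Ryr2, the main release channel of cardiomyocytes, had 2071, 1964 and 2122 CPM against 1949, 2352 and 1858 CPM, and the sarcoplasmic reticulum pump Atp2a2 had 4422, 3976 and 4202 CPM against 4505, 5142 and 3871 CPM. Pln, the inhibitor of that pump, had 2717, 2834 and 2320.1 CPM against 2928, 3848 and 3182 CPM (log2 fold change -0.34, SE 0.16, adjusted p = 0.2202). Ryr2 and Atp2a2 overlapped between the groups and Pln did not pass the test.

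Scn10a, a sodium channel pore of sensory neurons, was higher with 2.47, 2.29 and 1.32 CPM against 0.257, 0.324 and 0.333 CPM (log2 fold change 2.70), and its groups lay far apart. Of 37 potassium channel genes tested, 4 were called higher and 4 lower, 10.8% each beside 2.14% and 1.51% of all genes tested (median 0.08). Among the higher ones were both parts of the slow delayed rectifier, Kcne1 and its pore Kcnq1, which had 24.9, 20.4 and 23.5 CPM against 13.6, 10.6 and 10.5 CPM (log2 fold change 0.99, 5 of 6 fits). Kcnj12, an inward rectifier, had 9.93, 6.91 and 10.6 CPM against 4.62, 3.44 and 3.198 CPM (log2 fold change 1.28, 3 of 6 fits). The modifier subunit Kcng2 had 31.1, 22.7 and 25.6 CPM against 17.2, 15.3 and 17.7 CPM (log2 fold change 0.66, 1 of 6 fits), and with the GC correction its log2 fold change was 0.12 (adjusted p = 0.703). The higher genes therefore include 1 whose call did not hold. Kcnma1, a calcium-activated channel, was lower with 1, 0 and 3 counts against 28, 15 and 29 counts (log2 fold change -4.11). Kcnj15 had 0.377, 0.382 and 0.449 CPM against 2.31, 1.13 and 2.77 CPM (log2 fold change -2.35, 3 of 6 fits). The accessory subunit Kcne4 had 1.22, 1.45 and 1.24 CPM against 3.26, 2.51 and 3.43 CPM (log2 fold change -1.24, 2 of 6 fits). Abcc9, the sulfonylurea receptor of ATP-sensitive channels, had 186, 177 and 184 CPM against 313, 359 and 254 CPM (log2 fold change -0.76, 2 of 6 fits). It was the gene with the smallest change of the 4 lower ones.

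Signalling lists near to calcium gave single calls. Of 37 cAMP and adrenergic signalling genes tested, only Adcy6, an adenylyl cyclase, was called. With the GC correction 2 genes of this list were called higher and 1 lower, and its median went from 0.02 to -0.14. Adcy6 kept its call, with a corrected log2 fold change of 0.58. Without the correction Adcy6 had 94.7, 70.6 and 105 CPM against 60.6, 44.5 and 42.9 CPM (log2 fold change 0.87, SE 0.19, adjusted p = 0.0369, 2 of 6 fits). Its close relative Adcy5 had 32.5, 24.9 and 35.4 CPM against 24.5, 15.2 and 17.2 CPM (log2 fold change 0.71, SE 0.20, adjusted p = 0.0797). Of 14 calcineurin and NFAT genes, Akap5, an anchoring protein for calcineurin and protein kinase A, was lower with 3.44, 2.48 and 2.78 CPM against 6.16, 7.37 and 4.898 CPM (log2 fold change -1.08, 1 of 6 fits). Rcan1, a target gene of that pathway, had 19.8, 22.9 and 18.9 CPM against 26.5, 16.7 and 39.05 CPM and overlapped. Of 11 genes of EGF-family ligands and ErbB receptors, Egf alone was called. Of 18 genes of adenosine production and reception, Nt5e, the ectonucleotidase CD73, alone was called, with 15.7, 23.3 and 20.6 CPM against 7.702, 9.19 and 9.56 CPM (log2 fold change 1.17). With the GC correction 1 gene was called higher and 1 lower in the calcineurin list and likewise in the adenosine list.

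The contractile apparatus held calls in both directions. Of 30 thick and thin filament genes tested, 5 were called higher (16.7%, beside 2.14% of all genes tested) and 1 lower (median 0.22). The 5 include Myl9, a light chain of smooth muscle and nonmuscle cells. With the GC correction 6 were called higher and 4 lower. Mybpc3, the cardiac myosin-binding protein C, had 1866, 1374 and 1898 CPM against 1045, 898 and 918 CPM (log2 fold change 0.84, 2 of 6 fits). Tnnt2, cardiac troponin T, had 1416, 1052 and 1218 CPM against 798, 712 and 798 CPM (log2 fold change 0.68, 1 of 6 fits). Mylk3, the cardiac myosin light chain kinase, had 407, 397 and 388 CPM against 249.9, 196 and 216 CPM (log2 fold change 0.85, 5 of 6 fits). These abundant cardiomyocyte genes rose by less than the leading genes, and each transgenic heart lay above each littermate. Mybphl, a myosin-binding protein of atrial muscle and the conduction system, had 24, 11 and 29 counts against 1, 0 and 0 counts (5 of 6 fits), and Myl9 is given above. Acta1, the skeletal actin that injured ventricle re-expresses, was lower with 4.61, 8.05 and 11.9 CPM against 31.98, 14.8 and 73.96 CPM (log2 fold change -2.29, 2 of 6 fits). The littermates spread widely in this gene.

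Of 45 genes of the Z-disc, M-band and costamere, 5 were called higher and 4 lower, with a median of 0.19. These were 11.1% and 8.89%, beside 2.14% and 1.51% of all genes tested. With the GC correction 11 were called higher and 5 lower. Myot was lower, and most other genes of this list were not called in either direction. Cryab, a small heat shock protein that protects desmin, had 369, 279 and 337 CPM against 203, 172 and 192 CPM (log2 fold change 0.80, 2 of 6 fits). Neb, a giant thin filament protein, had 24.7, 61.7 and 21.2 CPM against 9.17, 10.8 and 9.16 CPM (log2 fold change 1.88, 3 of 6 fits), with replicate 2 labelled ZEB2 Tg the highest. The actin crosslinkers Actn4 and Flnc were higher as well. Actn4 had 29.8, 22.9 and 34.3 CPM against 16.9, 13.2 and 17.7 CPM (log2 fold change 0.87, 1 of 6 fits). Flnc had 207, 153 and 234 CPM against 127, 73.7 and 102 CPM (log2 fold change 0.97, 2 of 6 fits). Lower beside Myot were 3 genes of the membrane-linked cytoskeleton or of LIM proteins. Xirp2, an actin-binding protein of the intercalated disc, had 459, 645 and 391.7 CPM against 889.6, 952 and 1062 CPM (log2 fold change -0.96, 2 of 6 fits). Fhl1, a LIM protein linked to hypertrophy, had 29.2, 33.9 and 31.96 CPM against 43.4, 51.9 and 54.9 CPM (log2 fold change -0.66, 2 of 6 fits). Dystrophin, Dmd, had 231, 237 and 188 CPM against 304, 369 and 342 CPM (log2 fold change -0.63, 1 of 6 fits). In each of these every littermate lay above every transgenic heart. Of 23 intercalated disc genes, the talin gene Tln2 was higher with 86.2, 73.9 and 78.9 CPM against 56.9, 52.5 and 54.3 CPM (log2 fold change 0.54, 1 of 6 fits). None of these 23 was called lower, but Xirp2, which was lower, is not in that list.

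All 22 cardiomyocyte markers passed the filter. Mybpc3, Nkx2-5 and Tnnt2 were called higher (13.6%, beside 2.14% of all genes tested) and none lower. With the GC correction 5 were called higher and 1 lower. Of the 22, 18 had a positive log2 fold change, with a median of 0.32, or 0.14 with the GC correction. This moves in the same direction as the higher muscle genes, and its part in them was not tested.

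Fetal and stress genes of the strained ventricle did not move together. Of 16 tested, 6 were called higher (37.5%, beside 2.14% of all genes tested) and 2 lower (12.5%, beside 1.51%). The members were chosen with earlier results known, so these shares do not test the list against all genes. The natriuretic peptide gene Nppa had 104, 240.3 and 279 CPM against 27.03, 26.7 and 62.2 CPM (log2 fold change 2.43, SE 0.42, adjusted p = 0.0182, 4 of 6 fits). Nppb had 136, 249 and 144 CPM against 64.95, 56.8 and 94.1 CPM (log2 fold change 1.30, SE 0.26, adjusted p = 0.0308, 2 of 6 fits). The mechanosensitive cofactor Ankrd1 had 642, 1574 and 958 CPM against 435, 362 and 522 CPM (log2 fold change 1.27, 2 of 6 fits). In all 3 the transgenic hearts spread widely but lay above the littermates. The metallothionein Mt1, which binds zinc and other metals, had 16.9, 15.04 and 19.5 CPM against 10.7, 11.01 and 9.595 CPM (log2 fold change 0.72, 1 of 6 fits). Its relative Mt2 had 3.35, 3.24 and 3.96 CPM against 1.797, 1.74 and 1.73 CPM (log2 fold change 1.004, 1 of 6 fits). Acta1 and Xirp2 were the 2 lower genes. Myh7, the fetal myosin heavy chain, had 42.998, 70.3 and 81.8 CPM against 243, 35.4 and 251 CPM (log2 fold change -1.44, SE 0.57, adjusted p = 0.169). It overlapped because littermate replicate 2 lay far below the other two.

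Nppa and Mybphl are also genes of atrial muscle. The other 5 atrial markers summed to 4.48, 2.10 and 5.81 CPM against 1.87, 1.98 and 1.73 CPM, and of the 3 markers tested Nppa was called, or Nppa and Myl4 with the GC correction. Myl4, the atrial essential light chain, had 1.55, 0.649 and 1.88 CPM against 0.403, 0.445 and 0.466 CPM (log2 fold change 1.64, SE 0.41, adjusted p = 0.0606, or 0.0481 with the GC correction). Myl7, the atrial regulatory light chain, had 0, 1 and 39 counts against 0, 1 and 0 counts and was not tested. Sln, an atrial inhibitor of the calcium pump, had 0, 0 and 7 counts, and Bmp10, an atrial growth factor, 1, 6 and 4 counts, both with 0 counts in all littermates. Myl7 and Sln were thus at 0 or 1 count in replicates 1 and 2 labelled ZEB2 Tg, and higher in replicate 3. Nppa, Myl4 and the sum of the other markers lay above every littermate in each heart labelled ZEB2 Tg. The part of atrial tissue in these values was not tested.

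Cardiac transcription factors had 2 genes called higher (6.06%) and 3 lower (9.09%) of 33 tested, with a median of -0.02. Over all genes tested the shares were 2.14% and 1.51%. Besides Ankrd1, Nkx2-5, a core factor of cardiomyocyte identity, was higher with 5.57, 2.099 and 5.56 CPM against 1.58, 0.728 and 1.13 CPM (log2 fold change 1.94, 2 of 6 fits). Tead1, the DNA-binding partner of the Hippo pathway, had 36.2, 44.8 and 40.3 CPM against 64.6, 69.1 and 65.1 CPM (log2 fold change -0.71, 3 of 6 fits). Irx4, a factor of ventricular identity, had 3.06, 2.14 and 2.499 CPM against 7.299, 4.82 and 4.798 CPM (log2 fold change -1.14, 2 of 6 fits). Hey2, a Notch target of compact ventricular muscle, had 1.26, 0.916 and 1.24 CPM against 2.16, 3.28 and 2.37 CPM (log2 fold change -1.19, 1 of 6 fits). In the 3 lower factors the groups did not overlap, and the log2 fold changes ran from -1.19 to -0.71. Of the 33 factors, 24.2% were higher and 27.3% lower without overlap, beside 13.4% and 12.8% of all genes tested.

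Genes of the scar matrix were called in 1 direction only. Of 59 collagen and matrix genes tested, 9 were called lower (15.3%, beside 1.51% of all genes) and 0 higher. The median log2 fold change was -0.59 beside 0.01 for all genes. With the GC correction it was -0.75, and 17 were called lower. Summed over the list, the levels were 1746, 1866 and 1964 CPM against 2866, 2129 and 4253 CPM. Col3a1 (ENSMUSG00000026043, chromosome 1, 45311538 to 45349706, plus strand), a fibrillar collagen of early scar, had 134, 106 and 171 CPM against 455, 277 and 783 CPM (log2 fold change -1.88, SE 0.34, adjusted p = 0.0213, 3 of 6 fits). Col1a2, a chain of type I collagen, had 47.8, 44.5 and 66.02 CPM against 149.97, 69.8 and 196 CPM (log2 fold change -1.39, SE 0.32, adjusted p = 0.0497, 2 of 6 fits). Col3a1 was thus 3.69-fold and Col1a2 2.63-fold lower. Lum, a small proteoglycan that spaces collagen fibrils, had 26.1, 28.8 and 29.2 CPM against 52.96, 52.004 and 104 CPM (log2 fold change -1.31, 4 of 6 fits). Its relative Fmod had 0.0838, 0.0382 and 0.421 CPM against 1.83, 0.971 and 4.73 CPM (log2 fold change -3.62, 4 of 6 fits). Tnc, a glycoprotein that appears at sites of injury, had 0.587, 0.802 and 1.12 CPM against 4.47, 2.55 and 11.2 CPM (log2 fold change -2.83, 3 of 6 fits). The remaining called genes were the collagens Col14a1 and Col8a2, the elastic fibre protein Fbln5, and Lox. Col14a1 had 12.4, 17.3 and 16.1 CPM against 34.04, 27.8 and 63.1 CPM (log2 fold change -1.45, 3 of 6 fits). Col8a2 had 0.335, 0.382 and 0.534 CPM against 2.64, 1.01 and 6.06 CPM (log2 fold change -2.93, 3 of 6 fits). Fbln5 had 7.502, 7.75 and 7.86 CPM against 11.9, 10.6 and 16.5 CPM (log2 fold change -0.76, 2 of 6 fits), and its adjusted p was 0.0505 with the GC correction.

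Littermate replicate 3 was the highest library in all 9 of these genes, and the littermates spread more widely than the transgenic hearts. Without littermate replicate 3 the number of matrix genes called lower was 2, and without replicate 1 or replicate 3 labelled ZEB2 Tg it was 1 and 2. Without littermate replicate 1 it was 7, and without replicate 2 of the littermates or of the transgenic hearts it was 19 and 21. Other abundant matrix genes had the same sign and did not pass. Postn, a matricellular protein of activated fibroblasts, had 21.5, 81.3 and 39.1 CPM against 137, 83.2 and 309.5 CPM (log2 fold change -1.90, SE 0.54, adjusted p = 0.0791). Fn1, fibronectin, had 27.9, 30.5 and 39.4 CPM against 80.1, 44.1 and 130.2 CPM (log2 fold change -1.38, SE 0.33, adjusted p = 0.0525). Col1a1 had 15.3, 11.1 and 24.1 CPM against 65.03, 21.5 and 53.7 CPM (log2 fold change -1.47, SE 0.39, adjusted p = 0.0683), and its groups overlapped. Fn1 and Col1a1 passed with the GC correction, at an adjusted p of 0.02299 and 0.00638.

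**Figure D4:**
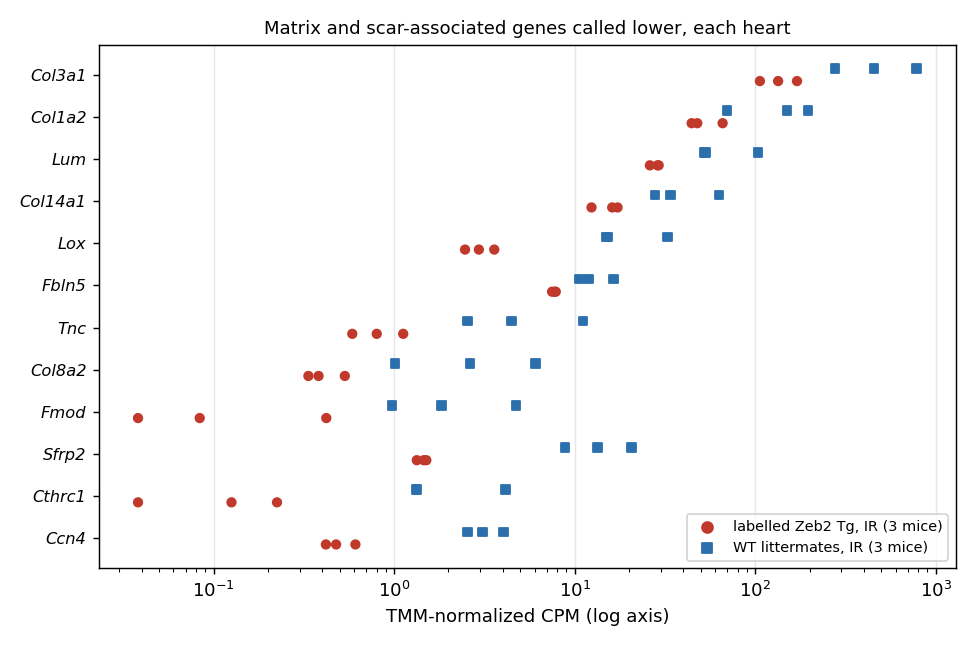
Levels in CPM (horizontal, log axis) of the 9 matrix genes called lower and of Sfrp2, Cthrc1 and Ccn4, with red circles for the hearts labelled ZEB2 Tg and blue squares for the littermates. In no row do the groups overlap, and littermate levels range widely, as in Col3a1 with 455, 277 and 783 CPM.

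Fibroblast markers followed in part. Of 11 tested, Col3a1, Lum and Col1a2 were called lower (27.3%, beside 1.51% of all genes tested), and the median log2 fold change was -1.31. The summed level was 921, 702 and 1096 CPM against 1391, 1003 and 1949.98 CPM, which overlapped. Pdgfra, a receptor that defines cardiac fibroblasts, had 28.7, 27.8 and 34.3 CPM against 37.8, 35.3 and 49.6 CPM (log2 fold change -0.43, SE 0.16, adjusted p = 0.139). Dcn, a proteoglycan of resting and activated fibroblasts, had 235, 248 and 259 CPM against 309.6, 334 and 472 CPM (log2 fold change -0.59, SE 0.17, adjusted p = 0.0793). Tcf21, a factor of resting fibroblasts, had 1.05, 1.18 and 1.57 CPM against 1.14, 1.13 and 1.53 CPM (log2 fold change 0.01). The markers outside the called ones ranged widely, and none passed without the GC correction. With it 5 markers were called lower, Col1a1 among them (adjusted p = 0.00638). Mfap4 and Pdgfrl lay as low as the collagens, with log2 fold changes of -1.48 and -1.92 and no overlap, whereas Dpep1 and Gsn were positive at 0.21 and 0.59 and overlapped. The number of markers called lower was 0 without replicate 1 or replicate 3 labelled ZEB2 Tg, 1 without littermate replicate 3, and 5 without replicate 2 of either group. The part of fibroblast number in the matrix result was not tested.

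Wnt ligands, secreted antagonists and related genes were called in both directions. Of 14 tested, Wif1 was called higher (7.14%) and Sfrp2 and Cthrc1 lower (14.3%), with a median of -0.51. Over all genes tested the shares were 2.14% and 1.51%. Cthrc1, a secreted protein of activated fibroblasts, had 3, 1 and 8 counts against 36, 33 and 124 counts (log2 fold change -4.01, 5 of 6 fits). Sfrp1 had 4.44, 5.61 and 6.71 CPM against 11.7, 8.18 and 18.6 CPM (log2 fold change -1.19, SE 0.28, adjusted p = 0.0525), with no overlap, and passed with the GC correction at an adjusted p of 0.0316. With that correction 1 gene of the list was called higher and 4 lower. Of 39 TGF-beta and BMP genes, Mstn, or myostatin, a negative regulator of muscle growth, was the single call, with 1.17, 1.18 and 0.927 CPM against 0.147, 0.445 and 0.133 CPM (log2 fold change 2.19, 2 of 6 fits). Tgfb1 had 1.76, 1.15 and 1.66 CPM against 1.58, 1.295 and 1.37 CPM, and Tgfb2 had 4.44, 8.63 and 5.42 CPM against 4.51, 4.98 and 6.03 CPM. Both of these profibrotic ligands overlapped between the groups.

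None of 15 genes of epithelial–mesenchymal transition was called, and 2 were called lower with the GC correction. The median log2 fold change was -0.43, or -0.29 with the GC correction, and 12 of the 15 were negative. Of the 15, 10 had lower levels without overlap (66.7%, beside 12.8% of all genes). Zeb1 and Fn1, given above, were among these 10. Dsp, desmoplakin, had 771, 688 and 745 CPM against 919.7, 778 and 842 CPM (log2 fold change -0.20, SE 0.12, adjusted p = 0.337). Cdh2, N-cadherin, had 158, 165 and 156 CPM against 145, 162 and 149 CPM (log2 fold change 0.07, or -0.09 with scaling on cardiomyocyte markers), so its sign turned with the scaling.

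**Figure D5:**
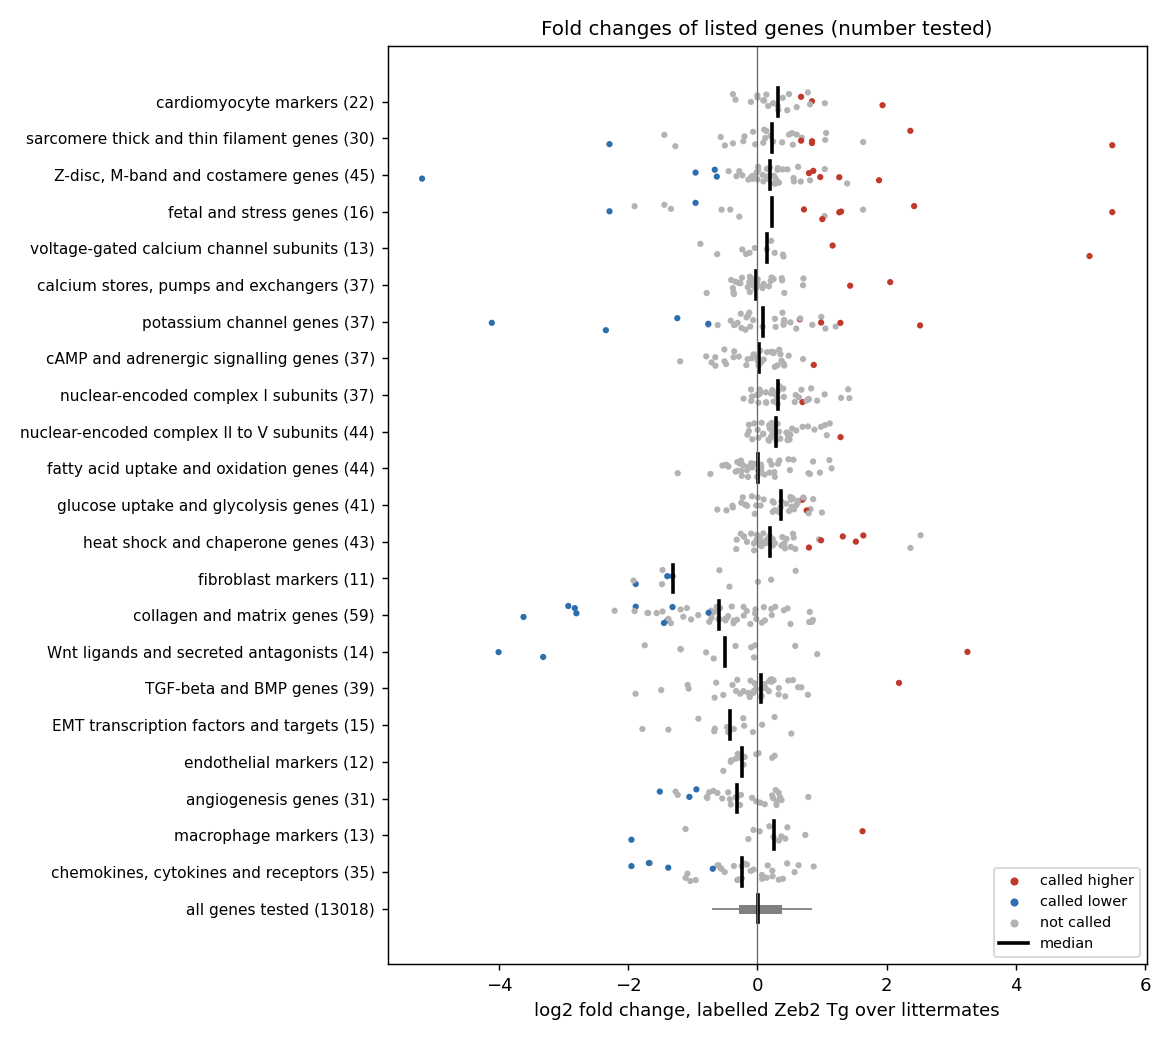
Log2 fold changes (horizontal), hearts labelled ZEB2 Tg over littermates, of the tested genes of 22 lists (rows), red where called higher, blue where called lower and grey otherwise. Black ticks mark medians, from -1.31 for fibroblast markers to 0.36 for glucose uptake and glycolysis, and the row for all 13018 genes shows the quartiles (thick bar) and the 5th to 95th percentile (thin line).

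Endothelial markers gave no call among 12 tested, and 9 had a negative log2 fold change. Pecam1 had 52.3, 50.1 and 60.7 CPM against 67.01, 54.4 and 67.9 CPM, and Cdh5 had 53.1, 47.6 and 62.1 CPM against 68.4, 55.3 and 63.2 CPM. Kdr, a VEGF receptor, had 87.2, 86.8 and 93.3 CPM against 118, 113 and 124 CPM (log2 fold change -0.41, SE 0.11, adjusted p = 0.0674) and passed with the GC correction at an adjusted p of 0.01701. Fabp4, a fatty acid-binding protein of capillaries, had 116, 124 and 111 CPM against 137, 151 and 156 CPM (log2 fold change -0.34, SE 0.11, adjusted p = 0.122). Of 31 angiogenesis genes, 3 were called lower (9.68%, beside 1.51% of all genes tested) and 0 higher. Vegfd, a growth factor for lymphatic vessels, had 0.8801, 0.725 and 0.674 CPM against 2.35, 2.02 and 2.099 CPM (log2 fold change -1.51, 4 of 6 fits). The peptide ligand Apln had 3.898, 5.53 and 4.16 CPM against 8.77, 8.18 and 9.195 CPM (log2 fold change -0.94, 3 of 6 fits). The guidance cue Sema3d had 1.97, 2.63 and 2.36 CPM against 3.85, 4.41 and 6.197 CPM (log2 fold change -1.05, 2 of 6 fits). With the GC correction 7 genes of this list were called lower. Of 11 smooth muscle and pericyte markers, Acta2, smooth muscle actin, was higher with 57.2, 39.8 and 64.5 CPM against 20.2, 13.8 and 16.7 CPM (log2 fold change 1.67, SE 0.20, adjusted p = 0.00463), and Abcc9 was lower. Myh11, the smooth muscle myosin, had 15.1, 10.8 and 18.1 CPM against 14.7, 12.4 and 11.3 CPM and overlapped.

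Immune genes held calls in both directions. Of 13 macrophage markers, Cd163, a scavenger receptor of resident macrophages, was higher with 6.79, 10.8 and 4.66 CPM against 2.35, 2.27 and 2.53 CPM (log2 fold change 1.63, 3 of 6 fits). Ccr2, the chemokine receptor of monocyte-derived cells, was lower with 2.18, 1.03 and 1.07 CPM against 3.26, 4.37 and 8.596 CPM (log2 fold change -1.95, 3 of 6 fits). The general macrophage markers overlapped, Adgre1 having 11.9, 14.7 and 11.4 CPM against 14.9, 11.7 and 15.2 CPM and Csf1r 27.7, 23.1 and 28.9 CPM against 23.7, 18.9 and 20.7 CPM. Of 35 chemokines, cytokines and receptors, 4 were called lower (11.4%, beside 1.51% of all genes tested) and 0 higher, Ccr2 among them. The alarmin Il33 had 1.09, 1.603 and 1.32 CPM against 3.34, 3.68 and 3.46 CPM (log2 fold change -1.38, 4 of 6 fits). The interferon-induced chemokine Cxcl9 had 0.8801, 0.725 and 0.365 CPM against 1.98, 2.02 and 2.17 CPM (log2 fold change -1.68, 2 of 6 fits). The interleukin-1 receptor Il1r1 had 4.69, 6.18 and 6.26 CPM against 8.91, 8.86 and 9.96 CPM (log2 fold change -0.69, 1 of 6 fits), and its adjusted p was 0.0626 with the GC correction. Cxcl9 was the single call among 32 interferon-stimulated genes (median -0.03). Psmb10, a subunit of the immunoproteasome, was the single call among 24 antigen presentation genes, with 15.05, 7.86 and 11.9 CPM against 4.73, 4.01 and 4.96 CPM (log2 fold change 1.34, 2 of 6 fits). Of the 24, 21 had a positive log2 fold change (median 0.47, or 0.24 with the GC correction).

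Markers of other cell types were weak, and of the 10 that passed the filter none was called, or 1 (Mybpc2) with the GC correction. Of lymphocyte markers, Ighm had 3.56, 2.82 and 3.398 CPM against 5.46, 2.27 and 4.298 CPM and Cd4 0.2095, 0.458 and 0.534 CPM against 0.697, 0.688 and 0.633 CPM. The neutrophil receptor Csf3r had 0.545, 0.725 and 0.7301 CPM against 0.587, 0.648 and 0.366 CPM. Dbh, an enzyme of sympathetic neurons, had 2.43, 0.534 and 1.68 CPM against 1.17, 0.445 and 0.733 CPM. These levels overlapped between the groups except in Cd4. Of skeletal muscle markers, Mybpc2 had 2.18, 2.67 and 3.85 CPM against 4.55, 4.01 and 4.46 CPM, with the littermates above the transgenic hearts and an adjusted p of 0.0417 with the GC correction, and Casq1 had 0.922, 1.22 and 1.15 CPM against 1.39, 0.8903 and 1.37 CPM. Of mesothelial markers, Wt1 had 1.26, 4.01 and 2.89 CPM against 1.98, 2.23 and 2.17 CPM and Msln 0.0838, 0.115 and 0.309 CPM against 0.257, 1.13 and 0.999 CPM. Of the 7 adipocyte markers none passed the filter.

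Most nuclear-encoded respiratory chain genes had a positive log2 fold change, a larger share than the 6593 of the 13018 genes tested, and few passed. Of 37 nuclear-encoded complex I subunits, 32 had a positive log2 fold change (median 0.32) and Ndufa1 alone was called (2.7%, beside 2.14% of all genes tested). It had 46.7, 43.9 and 47.7 CPM against 28.7, 29.9 and 26.7 CPM (log2 fold change 0.70, SE 0.11, adjusted p = 0.0139, 3 of 6 fits). Of 44 subunits of complexes II to V, 39 were positive (median 0.29) and Uqcr11 of complex III alone was called, with 113, 46.6 and 95.6 CPM against 40.8, 31.2 and 32.4 CPM (log2 fold change 1.29, 1 of 6 fits). With the GC correction 11 and 8 genes of these lists were called higher and 0 lower. Levels were higher without overlap in 48.6% and 40.9% of the 2 lists, beside 13.4% of all genes tested. They were lower without overlap in 0%, beside 12.8%. Of 13 mitochondrially encoded protein genes, 6 had at most 2 counts in any library and 7 were tested, of which none was called. Among them mt-Co1 had 26823, 33036 and 22072 CPM against 29386, 36769 and 30087 CPM, and mt-Nd1 had 13012, 14005 and 8021 CPM against 11631, 15503 and 11379 CPM.

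None of 44 genes of fatty acid uptake and oxidation was called (median 0.00). The lipase Lpl had 1221, 1132 and 1254 CPM against 1629, 2160.02 and 1459 CPM (log2 fold change -0.54, SE 0.16, adjusted p = 0.09302). The fatty acid transporter Cd36 had 773, 756 and 669.98 CPM against 864, 1074 and 1105 CPM (log2 fold change -0.47, SE 0.14, adjusted p = 0.0911). The littermates lay above the transgenic hearts in both, short of the threshold. Of 41 genes of glucose uptake and glycolysis, 2 were called higher (4.88%, beside 2.14% of all genes tested) and 0 lower (median 0.36). Triosephosphate isomerase, Tpi1, had 177, 131 and 167 CPM against 104, 89.6 and 101 CPM (log2 fold change 0.69, 1 of 6 fits). The enolase Eno1 had 16.8, 13.2 and 20.9 CPM against 9.76, 10.9 and 9.395 CPM (log2 fold change 0.76, 1 of 6 fits), and its adjusted p was 0.234 with the GC correction, under which 8 genes of the list were called higher.

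Among stress and housekeeping lists, 5 of 43 heat shock and chaperone genes were called higher (11.6%, beside 2.14% of all genes tested) and 0 lower (median 0.19). Hspb2, a small heat shock protein of muscle, had 15.5, 8.47 and 14.4 CPM against 5.17, 3.804 and 4.36 CPM (log2 fold change 1.52, 4 of 6 fits). Its relative Hspb1 had 25.1, 14.6 and 28.1 CPM against 9.21, 4.897 and 7.63 CPM (log2 fold change 1.64, 3 of 6 fits). Ddit3, a factor of the unfolded protein response, had 5.32, 4.43 and 6.88 CPM against 2.71, 2.91 and 2.799 CPM (log2 fold change 0.99, 1 of 6 fits). With Cryab, 3 small heat shock proteins were thus higher, and the other call was Hspa1l with 3.39, 4.05 and 3.23 CPM against 0.7702, 1.86 and 1.63 CPM (log2 fold change 1.32, 1 of 6 fits), whose adjusted p was 0.0722 with the GC correction. Of 77 cytosolic ribosomal protein genes, which share sequence with many pseudogenes, Rpl3, Rpsa and Rps29 were called higher and 0 lower (median 0.30). The share called higher was 3.9%, beside 2.14% of all genes tested. Rpl3 had 51.2, 50.5 and 49.2 CPM against 25.8, 22.99 and 32.4 CPM (log2 fold change 0.89, 4 of 6 fits). Rpsa had 63.6, 47.4 and 57.5 CPM against 35.8, 30.5 and 38.5 CPM (log2 fold change 0.69, 1 of 6 fits). Rps29 had 38.8, 16.7 and 32.97 CPM against 14.7, 10.1 and 11.6 CPM (log2 fold change 1.28, 1 of 6 fits).

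Further lists held 1 call in a direction or none. The immediate early gene Ier3 was higher with 10.7, 12.02 and 15.2 CPM against 4.91, 4.98 and 2.83 CPM (log2 fold change 1.58), the single call of 28. The circadian factor Clock was lower with 30.97, 33.4 and 26.6 CPM against 40.6, 46.99 and 56.6 CPM (log2 fold change -0.67, 2 of 6 fits), the single call of 22 clock genes. In heme synthesis, Alas1, which catalyses the first step, was higher with 87.5, 66.1 and 81.2 CPM against 48.2, 49.3 and 50.2 CPM (log2 fold change 0.67, 1 of 6 fits), and Cpox, a later enzyme, was lower with 9.18, 9.77 and 8.51 CPM against 14.7, 16.6 and 15.3 CPM (log2 fold change -0.76, 2 of 6 fits). The 2 heme enzymes therefore moved in opposite directions. None of 26 hypoxia genes was called, with the lactate dehydrogenase Ldha at 174, 139.7 and 142 CPM against 129, 121 and 129 CPM and the oxygen sensor Egln1 at 97.98, 86.9 and 105 CPM against 108, 116 and 90.4 CPM. With the GC correction 1 hypoxia gene was called higher and 1 lower. The histone gene Hist1h4h was higher with 2.47, 0.802 and 2.19 CPM against 0.587, 0.243 and 0.2998 CPM (log2 fold change 2.26, 2 of 6 fits), the single call of 14 genes of non-polyadenylated RNAs. Of 12 long noncoding RNAs none was called, Malat1 having 2968, 3948 and 3617 CPM against 3389, 4183 and 3251 CPM and Neat1 423, 679 and 659.7 CPM against 502, 501 and 499 CPM.

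Called genes were spread over the genome. On the chromosomes from 1 to 19 and X, between 2.45% (chromosome 14) and 5.28% (chromosome X) of the tested genes were called. Near the targeted Rosa26 locus (chromosome 6, 113067428 to 113077333), 60 genes within 5 Mb on either side were tested and 2 were called, 3.33% beside 3.64% of all genes. Alox5, the enzyme that starts leukotriene synthesis, had 13.2, 9.39 and 8.003 CPM against 3.67, 2.59 and 3.56 CPM (log2 fold change 1.63, SE 0.23, adjusted p = 0.008698). Rasgef1a, a Ras exchange factor, had 0.629, 0.8397 and 0.702 CPM against 0.257, 0.162 and 0.233 CPM (log2 fold change 1.71, SE 0.35, adjusted p = 0.0331, 1 of 6 fits). Both were higher in the hearts labelled ZEB2 Tg.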

How the data were processed

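RNA of 6 mouse hearts was sequenced as single-end 75-base reads. Per the labels and methods, the authors aligned reads with STAR 2.4.2a to mm10 and counted them per gene with HTSeq 0.6.1. The deposited values are raw read counts, not normalized, and 38293 genes are listed. The kit is TruSeq stranded mRNA in the labels and total RNA in the methods, and the strand setting of the counting is not given in the sources used here. The 6 libraries were grouped by label and compared within this table.

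Genes were filtered with edgeR's filterByExpr (minimum count 10), scaled by TMM and tested with the quasi-likelihood F test (edgeR 4.0.16, R 4.3.3), two-sided, with Benjamini-Hochberg adjustment over all genes tested. The fit held only the group. The script was tested on simulated data. Named are Zeb2, the 15 genes with the smallest p in each direction without overlap, up to 4 called members of each of 48 lists in each direction (or the 2 most abundant where none was called), defining markers, and called genes near Rosa26. Further genes were added after their values were seen (Zeb1, Myh6, Cacna1c, Ryr2, Atp2a2, Pln, Adcy5, Rcan1, Nppb, Myh7, Fmod, Col14a1, Col8a2, Fbln5, Postn, Fn1, Col1a1, Tcf21, Dpep1, Gsn, Mfap4, Pdgfrl, Sfrp1, Tgfb1, Tgfb2, Hspa1l). Some genes that the rule names are not reported here. Members and lists were chosen with earlier results of these data known. Alternatives were other scalings, filters, tools (DESeq2 1.42.0, limma 3.58.1), a GC correction, a replicate block and leaving out each library.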

Additional observations from a re-analysis of the deposited data

How the results depend on the processing

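The counts of 278 higher and 196 lower genes stayed within 1.5 times with RLE scaling (290 and 220), upper quartile scaling (248 and 215), no mitochondrial genes (280 and 202), at least 10 counts in every library (216 and 137), limma-voom (231 and 163), and the replicate block with GC correction together (413 and 290). They moved further with cardiomyocyte-marker scaling (179 and 602), no filter (1029 and 524), the GC correction (483 and 343), DESeq2 (626 and 384) and without 1 library (50 to 1594 and 46 to 825). The causes were not tested.

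With the replicate number as a block (replicate block) 1164 genes were higher and 649 lower. The labels do not say what the numbers share. Deviations from the group means of same-numbered hearts correlated at 0.134, 0.260 and -0.042 (mean 0.117). Replicates 1 and 2 labelled ZEB2 Tg correlated best with the littermate of the same number, and replicate 3 with littermate replicate 1 (0.330). Whether same-numbered samples share more than a number was not tested.

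Zeb2 was -0.06 with the block, 0.15 with the GC correction with or without the block, and -0.13 to 0.019 without 1 library. Among genes named by rank or list, signs that turned, none called, were mt-Nd1 (0.11 with the GC correction, 0.092 with the block as well, -0.30 to 0.076 without 1 library), Malat1 (0.16 and 0.16, -0.14 to 0.079), Uty (0.066 and 0.067), Wt1 (-0.0072 to 0.69 without 1 library) and Cdh2 (-0.086 with cardiomyocyte-marker scaling). So did those of 6 genes named after their values were seen (Cacna1c, Ryr2, Atp2a2, Tcf21, Tgfb1 and Tgfb2), none called. Of the genes named by rank or list, 4 lost their call with the GC correction (as did Fbln5, Aspn, Cntn2 and Hspa1l), 13 with cardiomyocyte-marker scaling, and 14 each with limma-voom and with the block and GC correction together. At 1 CPM a library holds 23.9 to 35.6 counts, which limits the weakest genes.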

Other observations

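The following genes belong to none of the lists and were chosen after their values were seen. Several are known from activated fibroblasts or scar and were lower in the hearts labelled ZEB2 Tg. C1qtnf3, a secreted protein of mesenchymal cells, had 0, 0.0382 and 0.1404 CPM against 1.72, 1.05 and 4.03 CPM (log2 fold change -4.97). Cemip, which breaks down hyaluronan, had 0.126, 0.0763 and 0.0842 CPM against 0.844, 0.445 and 0.733 CPM (log2 fold change -2.80, 4 of 6 fits). Nox4, an oxidase that makes hydrogen peroxide, had 1.47, 1.53 and 1.404 CPM against 6.46, 3.93 and 8.93 CPM (log2 fold change -2.14). Littermate values exceeded each transgenic value in all 3. Itgbl1 had 6.54, 7.44 and 6.26 CPM against 15.2, 13.1 and 28.7 CPM (log2 fold change -1.496, 4 of 6 fits), and the small proteoglycan Aspn had 15.8, 28.4 and 20.6 CPM against 37.3, 44.6 and 80.6 CPM (log2 fold change -1.33, 2 of 6 fits). Aspn no longer passed with the GC correction (adjusted p = 0.0577). The growth factor Igf1 had 8.298, 13.02 and 10.1 CPM against 17.3, 19.7 and 26.3 CPM (log2 fold change -1.01, 2 of 6 fits), and Agtr1a, the main angiotensin receptor, had 8.84, 6.79 and 6.94 CPM against 12.3, 16.1 and 11.9 CPM (log2 fold change -0.84, 1 of 6 fits).

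Clcn1, the chloride channel of skeletal muscle, had 0.461, 0.153 and 0.0562 CPM against 4.25, 3.72 and 2.13 CPM (log2 fold change -4.01). Rpl3l, a ribosomal protein that replaces Rpl3 in striated muscle, had 10.9, 4.85 and 6.99 CPM against 27.8, 25.4 and 20.1 CPM (log2 fold change -1.69, 5 of 6 fits), whereas Rpl3 itself had 51.2, 50.5 and 49.2 CPM against 25.8, 22.99 and 32.4 CPM (log2 fold change 0.89, 4 of 6 fits). The pair thus moved in opposite directions.

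The remaining genes described here were higher. Cntn2, an adhesion molecule of the conduction system, had 6.12, 3.702 and 2.27 CPM against 1.54, 1.295 and 1.099 CPM (log2 fold change 1.60, 2 of 6 fits), which did not pass with the GC correction (adjusted p = 0.0695). Sbk2 had 3.77, 0.649 and 1.74 CPM against 0.3301, 0.324 and 0.366 CPM (log2 fold change 2.56, 1 of 6 fits). Corin, the protease that activates natriuretic peptides, had 121, 130.04 and 124 CPM against 82.8, 93.1 and 68.9 CPM (log2 fold change 0.62, 2 of 6 fits). Mfn2, which fuses mitochondria, was also higher and had 383, 307 and 407 CPM against 219, 183 and 174 CPM (log2 fold change 0.93, 3 of 6 fits). Ppif, or cyclophilin D, a regulator of the permeability transition pore, had 84.7, 62.9 and 82.1 CPM against 46.7, 44.5 and 42.01 CPM (log2 fold change 0.79, 2 of 6 fits). In both the groups were free of overlap. The brain-type creatine kinase Ckb had 9.76, 5.15 and 11.3 CPM against 3.998, 2.02 and 3.23 CPM (log2 fold change 1.501, 2 of 6 fits), and the fatty acid synthase Fasn had 15.3, 10.95 and 17.2 CPM against 9.76, 6.43 and 7.06 CPM (log2 fold change 0.91, 2 of 6 fits). Ddc, which makes dopamine and serotonin from their precursors, had 4.53, 4.89 and 8.48 CPM against 0.807, 1.86 and 1.77 CPM (log2 fold change 2.02, 4 of 6 fits).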
